A study of Arabidopsis thaliana with 27 samples.

Results

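Rosettes of Arabidopsis thaliana GO5 plants, which express glycolate oxidase in their chloroplasts, were compared 8 h after a move to ambient CO2 with GO5 rosettes kept in high CO2 and harvested at the same hour. The comparison rests on 6 of the 27 arrays of the series, 3 per group, chosen by sample title alone, and on all 22746 probe sets other than the 64 controls. The GO5 ambient plants were transferred to 380 ppm CO2, the GO5 high-CO2 plants stayed at 3000 ppm, and 3 further GO5 arrays sampled the plants at 0 h. Wild-type Columbia-0 (WT) and the catalase-deficient mutant cat2-2 (cat2) went through the same design, with 3 arrays for each of their 0 h, 8 h ambient and 8 h high-CO2 groups. All plants, controls included, had grown for 3 weeks in soil at 3000 ppm CO2 under one light and temperature regime, so no group had developed in normal air. Each array held RNA of 2 whole rosettes, labelled as 1 biological replicate. The cat2 mutant keeps a small part of WT catalase activity. The promoter that drives the transgene and the number of independent lines were not given in the sources used here.

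When Rubisco takes up oxygen in place of CO2, the product is salvaged by photorespiration, in which glycolate is oxidised in peroxisomes and hydrogen peroxide is released for catalase to remove. High CO2 suppresses this flow and ambient CO2 lets it run. A glycolate oxidase placed in the chloroplast turns glycolate into hydrogen peroxide there, whereas loss of the catalase CAT2 leaves peroxide unscavenged in the peroxisome. Hydrogen peroxide acts in plants both as an oxidant and as a signal that changes nuclear gene expression.

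Values were log2 signals of single probe sets, so a difference of 1 is a 2-fold change. Levels were compared between arrays, for a single probe set or for the median over the probe sets of a list. Levels of single probe sets were not set against each other. A probe set was called where limma gave a Benjamini-Hochberg adjusted p below 0.05 over all 22746, with 1 mean per group fitted on all 27 arrays (two-sided). Each array of the 2 GO5 groups correlated at 0.986 to 0.988 (ambient) and 0.991 to 0.994 (high CO2) with the others of its group, and the median SD over probe sets was 0.172 at ambient and 0.123 at high CO2. The WT ambient arrays, which enter every difference from the WT step, were less alike. They correlated at 0.969, 0.974 and 0.980 with each other, and their median SD was 0.237, the largest of the 9 groups. The 3'-minus-5' difference of the GAPDH control probe sets, a measure of RNA integrity and labelling, was 1.54, 1.62 and 1.33 on the ambient arrays against 1.76, 1.85 and 1.89 on the high-CO2 arrays. These ranges did not overlap (mean difference -0.34, exact permutation p = 0.1, the smallest that 3 against 3 arrays allow), while the same measure for actin averaged 4.20 ± 0.25 and 4.11 ± 0.14 (SD, n = 3 each, exact permutation p = 0.7). On the WT ambient arrays the GAPDH difference was 1.785, 2.824 and 1.763, and that of replicate 2 was the largest of all 27 arrays. With the GAPDH difference as a covariate 3871 probe sets were called, of which 3359 were among the 4022 called without it, and 13 of the 149 genes named as called in GO5 lost their call. The leaf marker RCA (Rubisco activase) had log2 signals of 12.59 to 13.05 on the ambient arrays and 12.74 to 12.96 on the high-CO2 arrays, with no call. Markers of other cell types could be followed only for EXPA7 and PYK10 (root), FMA (guard cells) and AUR1 (dividing cells), and none of these 4 was called (adjusted p between 0.23 and 0.87). In whole rosettes a smaller number of cells of one type and less RNA per cell cannot be told apart.

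In GO5, 4022 probe sets (17.7%) were called between ambient and high CO2, 1750 higher (7.69%) and 2272 lower (9.99%) at ambient CO2. The increases were larger than the decreases. Of the calls, 890 were 2-fold or more higher (3.91%) and 317 were 2-fold or more lower (1.39%), 285 and 37 reached 4-fold, and 79 and 4 reached 8-fold. The median over all probe sets was -0.04. The replicate arrays of the 2 groups did not overlap for 3896 of the 4022 called probe sets, against 8108 (35.6%) of all probe sets tested. Ambient replicate 2 was the highest ambient array for 1125 of the 1750 increases and the lowest for 1546 of the 2272 decreases, and without it 2309 probe sets were called. Without high-CO2 replicate 1 the count was 2672.

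**Figure D1:**
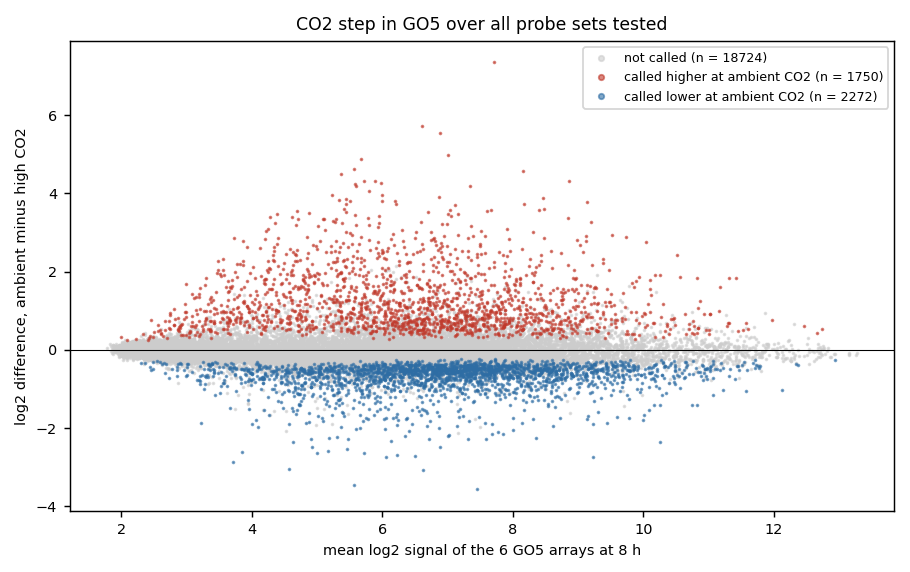
Difference between ambient and high CO2 in GO5 at 8 h (y axis, log2) against the mean log2 signal of the 6 arrays (x axis), with 1 point for each of 22746 probe sets. The 1750 called increases (red) reach further from 0 than the 2272 called decreases (blue), and 18724 probe sets (grey) were not called.

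Several of the largest increases were genes that also rose in cat2 and WT. AT5G47330, which encodes an alpha/beta-hydrolase family protein, had log2 signals of 10.37, 9.30 and 9.28 at ambient CO2 against 4.32, 3.94 and 4.08 at high CO2. The 2 groups lay far apart, and the difference was 5.54 ± 0.29 (SE, 46.5-fold, adjusted p = 1.37e-10). Its step was 5.82 ± 0.29 in cat2 and 5.56 ± 0.29 in WT, and neither difference from GO5 passed the test (adjusted p = 0.927 and 0.988). The AP2/ERF transcription factor gene AT4G28140 had a log2 signal of 8.09, 8.16 and 7.37 in the 3 ambient samples and 3.26, 3.09 and 3.43 in the 3 high-CO2 samples, a difference of 4.61 ± 0.39 (adjusted p = 8.11e-08). Its relative AT1G64380 rose by 3.81 ± 0.45, and AT1G30250 by 4.31 ± 0.40. AT4G39320 rose by 3.49 ± 0.32, the GDSL-type lipase gene AT2G04570 by 3.43 ± 0.26, and the wax ester synthase gene WSD1 by 3.41 ± 0.39 (adjusted p at most 4.38e-06 for these 5). For these 5 the cat2 steps lay between 3.31 and 4.28 and the WT steps between 3.49 and 5.26, and none differed from the GO5 step by the test. The 2 largest increases among probe sets not paired with a single gene were 247717_at, by 7.35 ± 0.40, and 247718_at, by 5.72 ± 0.32. In WT these 2 rose by 7.96 ± 0.40 and 6.70 ± 0.32.

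**Figure D2:**
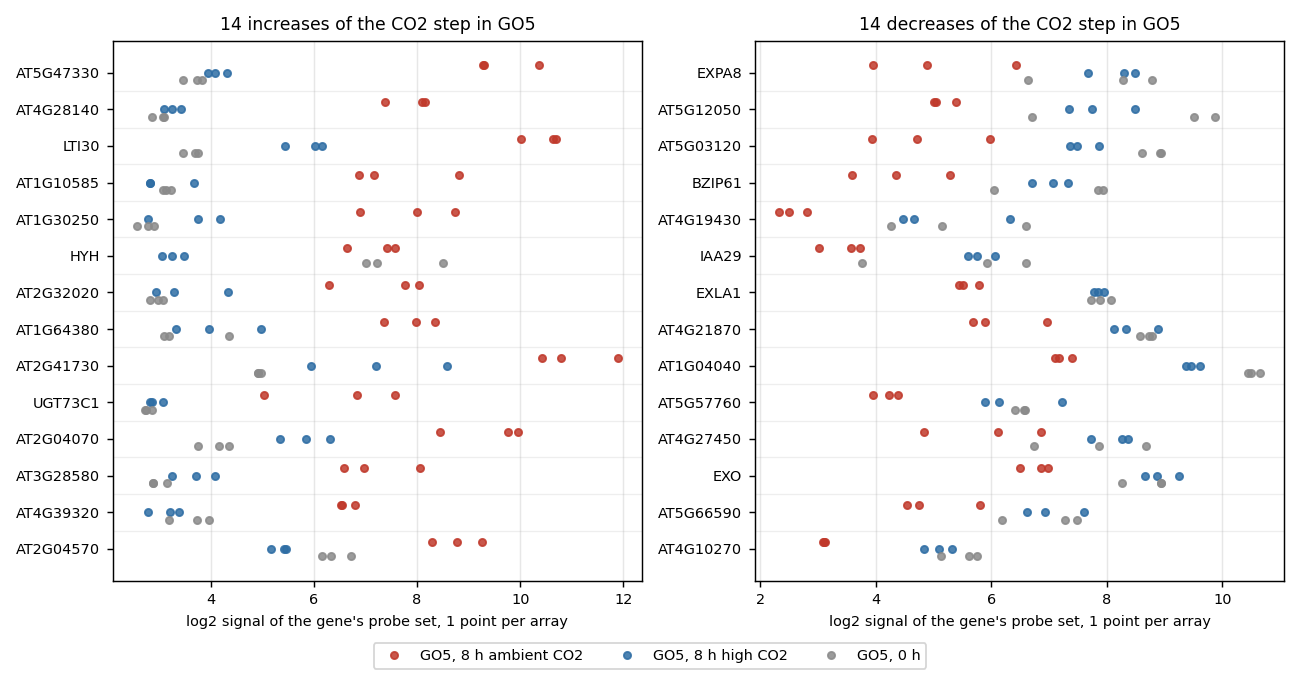
Log2 signal (x axis) of the 14 largest called increases (left) and 14 largest called decreases (right) in GO5, with 1 point per array for 8 h ambient CO2 (red), 8 h high CO2 (blue) and 0 h (grey). Only probe sets paired with a single gene were eligible, and only where the 3 ambient and 3 high-CO2 arrays did not overlap. The separation of the 2 groups in each row therefore follows from the choice of genes. HYH at 0 h lies near its ambient level.

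Genes known as targets of mitochondrial retrograde signalling, the path by which disturbed mitochondria alter nuclear transcription, rose together in GO5. All 11 measured members of a list of 22 were called higher, against 7.69% of all probe sets, with a median difference of 2.94 against -0.04 over all probe sets. This list, like the other lists and families below, was chosen with earlier results of these data known. Its counts therefore describe these arrays and are not independent support. The list median was 1.51 in cat2, where 6 were called higher (5.16% of all probe sets), and 0.11 in WT, where none was called higher (2.78% of all). The difference between the GO5 and WT steps was itself called for 9 of the 11, all with the larger rise in GO5 (1.45% of all probe sets), though NDB2 kept that call in 8, GSTU25 in 7 and AT2G04050 in 3 of the 12 fits with 1 array left out. At 8 h in ambient CO2 GO5 and WT differed in 4193 probe sets (18.4%), of which GO5 had 1953 higher (8.59%) and 2240 lower (9.85%), with all 11 genes among the higher ones.

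AT2G32020, which encodes an acetyltransferase of the GNAT family, had log2 signals of 6.29, 8.05 and 7.77 on the ambient arrays and 3.29, 2.94 and 4.33 on the high-CO2 arrays. All 3 ambient arrays stood above all 3 high-CO2 arrays, by 3.85 ± 0.32 on average (14.4-fold, adjusted p = 6.02e-08). Its steps in cat2 and WT were 0.20 ± 0.32 and 0.19 ± 0.32, and the GO5 step exceeded both (adjusted p = 0.000222 against cat2 and 0.00016 against WT). AT2G41730, whose probe set may detect further transcripts by its suffix, had log2 signals of 10.41, 11.90 and 10.79 at ambient CO2 against 7.21, 5.95 and 8.59 at high CO2. Its groups were separate although the high-CO2 arrays spread widely, and the difference was 3.79 ± 0.48 (adjusted p = 1.12e-05). NDB2, an external NADH dehydrogenase of the mitochondrial inner membrane that bypasses complex I, had a log2 signal of 7.79, 9.08 and 8.71 in the 3 ambient samples and 5.10, 5.07 and 5.78 in the 3 high-CO2 samples. It was 3.21 ± 0.39 higher at ambient CO2 (adjusted p = 6.17e-06), against 2.06 ± 0.39 in cat2 and 0.75 ± 0.39 in WT. AT5G43450, which encodes a 2-oxoglutarate-dependent dioxygenase family protein, rose by 2.94 ± 0.37 (adjusted p = 1.12e-05), against 1.55 ± 0.37 in cat2 and 0.22 ± 0.37 in WT.

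The MATE transporter gene AT2G04050 had log2 signals of 9.21, 10.35 and 9.89 on the ambient arrays and 6.89, 4.56 and 8.95 on the high-CO2 arrays, so that the high-CO2 arrays differed more among themselves than the ambient arrays did. The 2 groups remained apart, by 3.02 ± 0.58 (adjusted p = 0.000835). At 0 h its 3 GO5 arrays had lain between 2.92 and 2.93, and the gene was 3.87 higher at 8 h in GO5 kept in high CO2 than at 0 h. GO5 and WT differed in only 3 probe sets at 8 h in high CO2 (0.0132%), and AT2G04050 was one of them, by 3.94 ± 0.58 (adjusted p = 0.00682). AT5G51440, a mitochondrial small heat shock protein, had log2 signals of 7.24, 9.05 and 8.01 at ambient CO2 against 5.46, 4.50 and 7.64 at high CO2, with groups that overlapped. Its difference of 2.23 ± 0.73 was called (adjusted p = 0.0369), and 4 of the 6 fits that left out 1 GO5 array lost the call, ambient replicates 2 and 3 and high-CO2 replicates 1 and 2 (highest adjusted p 0.213). Across all 11 genes replicate 2 was the highest ambient array, and replicate 3 the highest and replicate 2 the lowest high-CO2 array. The list's median level was 7.24, 9.05 and 8.01 on the 3 ambient arrays against 5.19, 4.50 and 5.85 on the high-CO2 arrays and 3.83, 3.76 and 3.56 at 0 h. On the ambient arrays these medians equal the values of AT5G51440. In WT all 9 arrays had list medians between 3.57 and 4.12. Of the 11 genes, 5 were called higher in GO5 at 8 h in high CO2 than at 0 h (7% of all probe sets). At 8 h in high CO2 10 had a higher mean in GO5 than in WT, by a list median of 1.08. Over all 22746 probe sets 11101 had a higher mean in GO5 there.

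Genes that attach sugars to reactive or foreign compounds, export them or reduce reactive carbonyls also rose. Of 10 measured genes of the list called other detoxification, out of 23, 9 were called higher and none lower (7.69% and 9.99% of all probe sets). The median was 2.29 in GO5, 1.14 in cat2 and 0.23 in WT. The list shares AT2G04050 and UGT73B4 with the retrograde list. UGT73C1, a glycosyltransferase that acts on hormones and foreign compounds, had a log2 signal of 5.03, 7.57 and 6.83 in the 3 ambient samples and 2.86, 3.08 and 2.82 in the 3 high-CO2 samples. All ambient arrays were higher, replicate 1 least, and the difference was 3.56 ± 0.35 (adjusted p = 5.19e-07), against 2.47 ± 0.35 in cat2 and 0.31 ± 0.35 in WT. AT2G04070, a MATE transporter gene close in sequence to AT2G04050, so that the 2 probe sets may share signal, rose by 3.56 ± 0.35 (adjusted p = 5.19e-07). UGT73B4 rose by 2.85 ± 0.30 and UGT73B5 by 2.54 ± 0.35 (adjusted p = 1.11e-06 and 3.27e-05). The larger GO5 than WT step was called for UGT73C1, UGT73B4, UGT73B5, AT2G04070 and AT2G04050 (adjusted p = 0.00088, 0.00053, 0.00679, 0.000221 and 0.0483). The first 4 kept this call with any 1 of the 12 arrays left out. AT2G04050 kept it in 3 of 12 fits (highest adjusted p 0.15). AT2G04050 also lost it with median centring, with a trended robust fit and without the 2 arrays that stood apart. These 2 arrays, cat2 ambient replicate 3 and WT ambient replicate 1, had the lowest median signals of all arrays (5.372 and 5.278). AT5G16980, of the family of alkenal reductases, went against the rest of the list in that its step was larger in cat2, 2.57 ± 0.24, than in GO5, 0.72 ± 0.24 (difference adjusted p = 0.0089). The GO5 step of AT5G16980 itself was lost in 5 of the 6 fits with 1 GO5 array left out.

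Of 47 measured UDP-glycosyltransferases collected by gene name, 13 were called higher and 1 lower (7.69% and 9.99% of all probe sets), with a median of 0.28 against -0.04 over all. Family members under other names were not counted. UGT76E12 rose by 2.79 ± 0.48, UGT84A3, which glucosylates phenolic acids, by 2.60 ± 0.35, and UGT87A2 by 2.04 ± 0.37. Of 12 measured glutathione transferases, 3 were called higher and 1 lower, against the same shares. GSTU25 rose by 3.10 ± 0.49 (adjusted p = 0.000137), against 4.83 ± 0.49 in cat2 and 0.11 ± 0.49 in WT. GSTU16 and GSTU22 rose by 0.84 ± 0.17 and 0.75 ± 0.25, and GSTU18 was lower, at -0.80 ± 0.21. GSTU18 lost its call without ambient replicate 2 (adjusted p = 0.087), and GSTU22 lost it in 5 of the 6 fits with 1 GO5 array left out.

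**Figure D3:**
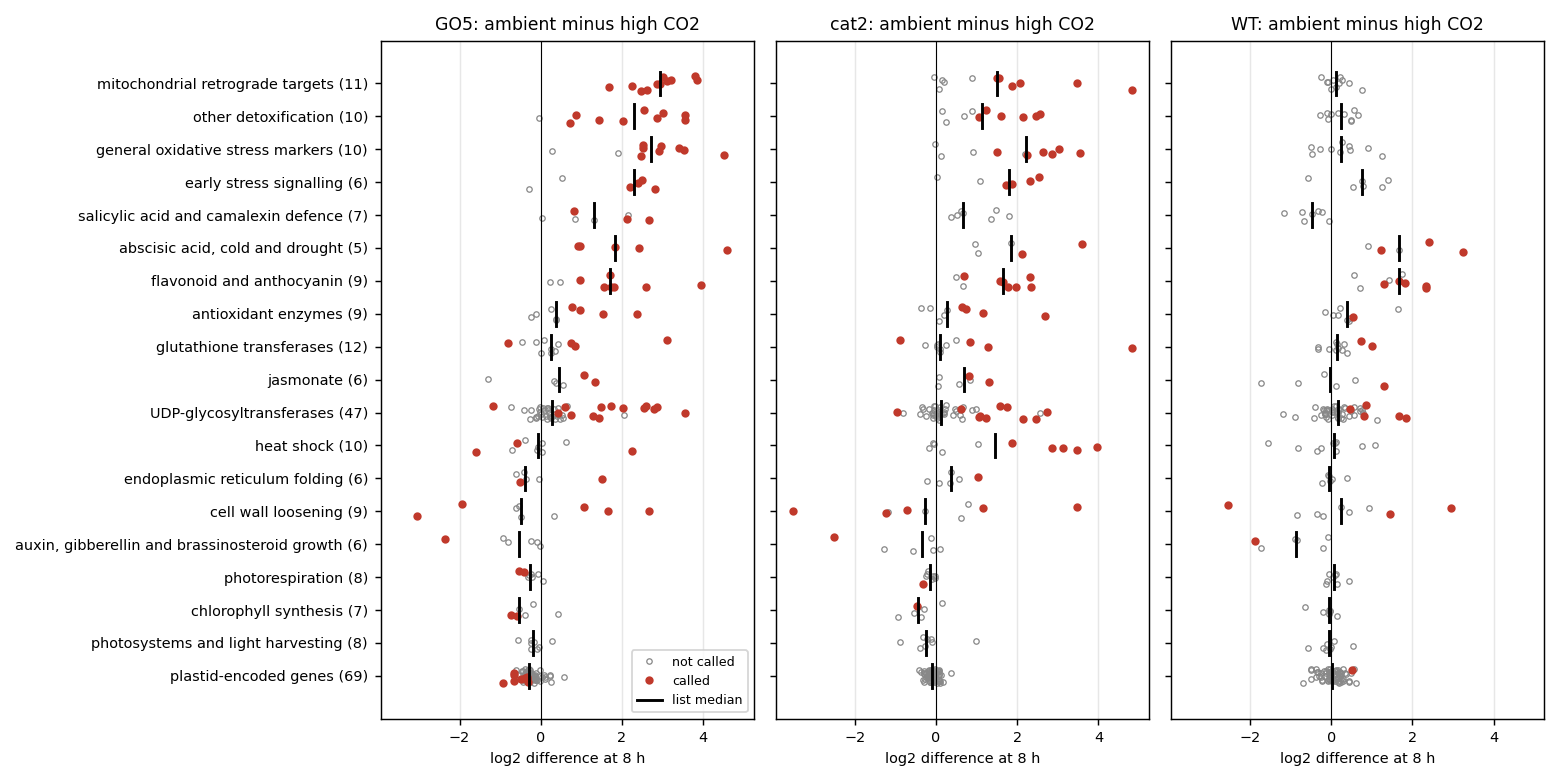
Log2 difference between 8 h ambient and 8 h high CO2 (x axis) of each measured member of 19 gene lists (rows, with the number of probe sets) in GO5, cat2 and WT, where filled points were called, open points were not and bars mark list medians. The 11 retrograde targets all lie to the right in GO5 with a median of 2.94 and around 0.11 in WT, whereas the flavonoid median is similar in the 3 genotypes at 1.72, 1.64 and 1.67.

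Markers that respond to several forms of oxidative stress were higher in GO5 at ambient CO2. Of 10 measured genes out of 16 listed, 8 were called higher and none lower (7.69% and 9.99% of all probe sets). The list medians were 2.71 in GO5, 2.21 in cat2 and 0.25 in WT. AT1G10585, a basic helix-loop-helix factor gene, had log2 signals of 6.87, 8.81 and 7.16 on the ambient arrays and 2.83, 2.82 and 3.67 on the high-CO2 arrays. The groups were clearly separate, by 4.51 ± 0.53 (adjusted p = 4.38e-06), and the step exceeded that of WT, 1.24 ± 0.53 (difference adjusted p = 0.0216, called in 8 of the 12 fits with 1 array left out). The AAA-ATPase gene AT3G28580 had log2 signals of 6.58, 8.05 and 6.97 at ambient CO2 against 3.72, 4.08 and 3.24 at high CO2, a difference of 3.52 ± 0.40 (adjusted p = 3.35e-06). Its steps were 0.90 ± 0.40 in cat2 and -0.48 ± 0.40 in WT, and the GO5 step was larger than either (adjusted p = 0.0368 and 0.00053). The call against cat2 was kept in 2 of the 12 fits with 1 array left out (highest adjusted p 0.147) and lost without the 2 arrays that stood apart, whereas the call against WT was kept in all 12. The calmodulin-like gene AT3G01830 rose by 3.41 ± 0.82, AT1G05340 by 2.96 ± 0.62 and the TIR-domain gene AT1G57630 by 2.90 ± 0.74 (adjusted p = 0.00565, 0.00192 and 0.00876), the last of which was not called without ambient replicate 2 (adjusted p = 0.057). For these 3 the difference from the WT step was not called (adjusted p between 0.17 and 0.22), nor was that from cat2 (all above 0.95).

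Among 6 measured genes of early stress signalling, 4 were called higher, against 7.69% of all probe sets. WRKY6, a transcription factor of senescence and defence, had a log2 signal of 7.21, 8.09 and 7.35 in the 3 ambient samples and 4.60, 5.17 and 4.41 in the 3 high-CO2 samples, with ambient above high CO2 on every array (difference 2.82 ± 0.50, adjusted p = 0.00045). The calmodulin-like genes CML38 and CML37 rose by 2.50 ± 0.58 and 2.21 ± 0.50, and the zinc-finger repressor gene STZ by 2.39 ± 0.68 (adjusted p = 0.00427, 0.00331 and 0.0176). Of 7 measured genes of salicylic acid and camalexin defence 3 were called higher (7.69% of all probe sets). AT1G26380, an oxidase of the berberine bridge family that acts in indolic defence metabolism, rose by 2.66 ± 0.63 (adjusted p = 0.0048), and its relative AT1G26410 by 2.13 ± 0.51 (adjusted p = 0.00513). Both steps exceeded those of WT, -0.66 ± 0.63 and -0.71 ± 0.51 (adjusted p = 0.046 and 0.0352), but the difference was called in 3 and 5 of the 12 fits with 1 array left out (highest adjusted p 0.154 and 0.128). AT2G04400, an enzyme of tryptophan synthesis, rose by 0.81 ± 0.23. Its call and that of STZ were lost without ambient replicate 2 or high-CO2 replicate 1 (highest adjusted p 0.171 and 0.089). WRKY53 differed by 1.31 ± 0.61 and AT1G26420 by 2.14 ± 0.81 without passing the test (adjusted p = 0.157 and 0.0728).

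The step in GO5 was tested directly against the steps of the other genotypes, which shared no array with it. Against WT, 633 probe sets (2.78%) differed, 329 with a higher (1.45%) and 304 with a lower (1.34%) value of the GO5 step. Against cat2 it was 112 (0.492%), 71 higher (0.312%) and 41 lower (0.18%). With each array centred on its median the splits were 290 higher and 525 lower against WT and 52 higher and 49 lower against cat2, and without the 2 arrays that stood apart 113 were higher and 166 lower against cat2. Both counts depended on the estimate of the spread, since 13 and 6 probe sets passed when only the 12 arrays of the 2 genotypes entered the fit. Leaving out 1 array gave 190 (without GO5 ambient replicate 2) to 1675 (without WT ambient replicate 2) against WT, and 57 (without GO5 high-CO2 replicate 2) to 367 (without GO5 ambient replicate 1) against cat2. The genes named here for such a difference had adjusted p between 0.054 and 0.285 in that fit, and NDB4, AT5G09570 and the 2 small heat shock protein genes below were not followed there. Over all probe sets the GO5 and cat2 steps correlated at r = 0.758 and the GO5 and WT steps at r = 0.534, as descriptions across probe sets of 2 sets of 6 arrays each. The steps of cat2 and WT had 2563 calls (11.3%) and 1085 calls (4.77%). Of the 1750 increases in GO5, 383 (21.9%) were also called in WT, which is 60.5% of the 633 WT increases, and 758 (43.3%) in cat2, which is 64.6% of the 1174 cat2 increases. Of the 2272 decreases, 249 (11.0%) were called in WT (55.1% of its 452 decreases, or 1.99% of all probe sets) and 860 (37.9%) in cat2 (61.9% of its 1389, or 6.11% of all).

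The 6 largest excesses over the cat2 step, all called against WT as well, were those of AT2G32020, AT2G04070, AT2G23270, AT4G37290, AT1G71530 and AT2G20720, and these 6 kept both calls with any 1 of the arrays compared left out. AT2G23270 and AT4G37290 encode precursors of small secreted peptides of the kind induced by microbial patterns. AT2G23270 had log2 signals of 6.16, 7.84 and 7.01 on the ambient arrays and 3.95, 3.44 and 3.92 on the high-CO2 arrays, and every ambient array was well above the high-CO2 arrays, by 3.23 ± 0.28 (adjusted p = 9.93e-08). Its steps in cat2 and WT were 0.03 ± 0.28 and -0.09 ± 0.28 (difference adjusted p = 0.000222 and 0.00016). AT4G37290 had log2 signals of 6.21, 8.18 and 7.77 at ambient CO2 against 3.97, 3.81 and 4.84 at high CO2, a difference of 3.18 ± 0.35 (adjusted p = 2.42e-06), against 0.31 ± 0.35 in cat2 and 0.06 ± 0.35 in WT. AT1G71530, of the protein kinase superfamily, lay between 2.67 and 2.73 on the 3 high-CO2 arrays and reached 4.60, 6.72 and 5.88 on the ambient arrays. It rose by 3.04 ± 0.29 in GO5 (adjusted p = 3.44e-07), and its steps in cat2 and WT were 0.32 ± 0.29 and 0.04 ± 0.29. AT2G20720 rose by 3.01 ± 0.35 (adjusted p = 4.45e-06), with -0.14 ± 0.35 in cat2 and 0.23 ± 0.35 in WT. In the retrograde list 4 of 11 genes exceeded cat2 (0.312% of all probe sets), AT2G32020, UGT73B4, NDB4 and AT5G09570, of which the last 2 were named after their values were seen. UGT73B4 kept this call in 4 of the 12 fits with 1 array left out (highest adjusted p 0.116) and lost it without the 2 arrays that stood apart. NDB4, a further external NADH dehydrogenase, rose by 2.62 in GO5, against -0.06 in cat2 and 0.05 in WT (difference adjusted p = 0.0122 and 0.00858).

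Other genes exceeded WT without a call against cat2. AT1G74360, a receptor-like kinase with leucine-rich repeats, had a log2 signal of 6.53, 8.22 and 7.75 in the 3 ambient samples and 4.30, 4.82 and 3.98 in the 3 high-CO2 samples, a rise of 3.13 ± 0.47 (adjusted p = 7.64e-05). In cat2 its step was 1.74 ± 0.47 and in WT -0.23 ± 0.47 (difference adjusted p = 0.554 and 0.00875). SUFE2, an activator of the plastid cysteine desulfurase that supplies sulfur for iron-sulfur clusters, had log2 signals of 6.98, 8.74 and 7.80 on the ambient arrays and 4.25, 5.22 and 4.86 on the high-CO2 arrays. It rose by 3.07 ± 0.55 (adjusted p = 0.000482), against 1.63 ± 0.55 in cat2 (difference adjusted p = 0.648) and -0.75 ± 0.55 in WT (difference adjusted p = 0.0117). Of 10 measured heat shock genes 5 were called higher in cat2 (5.16% of all probe sets) and none in WT (2.78%), and 2 had a lower step in GO5 than in cat2 (0.18%). In GO5 1 was called higher (7.69% of all), AT5G51440, and 2 lower (9.99% of all), the immunophilin-type gene AT5G48570 at -1.59 ± 0.50, and HSA32, at -0.58 ± 0.16. Both calls were lost without high-CO2 replicate 3, and that of AT5G48570 without 3 other arrays too (highest adjusted p 0.126 and 0.0962). The small heat shock protein genes AT2G29500 and AT1G53540 had GO5 steps of 0.03 ± 0.54 and -0.10 ± 0.43 (adjusted p = 0.982 and 0.923), against 3.97 ± 0.54 and 2.86 ± 0.43 in cat2. The difference was called for both (adjusted p = 0.0155 and 0.026).

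**Figure D4:**
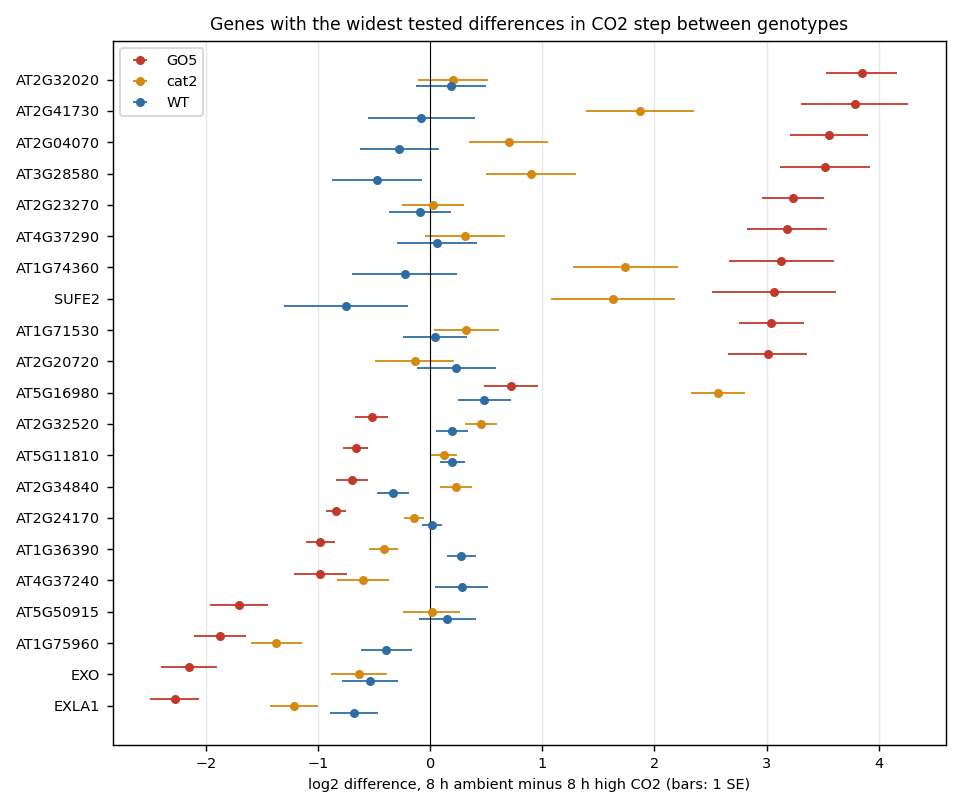
Log2 difference between 8 h ambient and 8 h high CO2 (x axis, bars 1 SE) in GO5 (red), cat2 (orange) and WT (blue) for the 21 genes with the widest called differences in step between genotypes. AT2G32020 is at 3.85 in GO5 and near 0 in both others, EXLA1 and EXO lie lowest in GO5, and AT5G16980 is highest in cat2.

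Antioxidant enzymes moved less than the stress markers. Of 9 measured genes out of 41 listed, 4 were called higher and none lower in GO5 (7.69% and 9.99% of all probe sets). In cat2 4 were called higher (5.16% of all) and in WT 1 (2.78% of all). The list medians were 0.37 in GO5, 0.27 in cat2 and 0.38 in WT. For no gene of the list was the GO5 step called different from that of cat2 or WT. GRX480, a glutaredoxin that interacts with TGA transcription factors, rose by 2.36 ± 0.53 (adjusted p = 0.0033). GR1, a glutathione reductase, had log2 signals of 9.11, 9.48 and 9.56 at ambient CO2 against 7.62, 7.51 and 8.41 at high CO2. It was 1.54 ± 0.24 higher at ambient CO2 (adjusted p = 0.000129), yet at 0 h its mean had been 9.95, above both groups at 8 h. SAPX, the stromal ascorbate peroxidase, rose by 0.98 ± 0.14 and the monodehydroascorbate reductase gene ATMDAR2 by 0.78 ± 0.20 (adjusted p = 6.68e-05 and 0.009), the second not called without ambient replicate 2 (adjusted p = 0.0611). The thylakoid ascorbate peroxidase gene TAPX differed by -0.24 ± 0.17, the 2-Cys peroxiredoxin gene AT3G11630 by -0.12 ± 0.09 and the plastid thioredoxin reductase gene NTRC by 0.37 ± 0.15, none of them called (adjusted p = 0.38, 0.441 and 0.0961). SIR, the sulfite reductase of plastids, rose by 0.58 ± 0.11 (adjusted p = 0.000938), whereas its steps in cat2 and WT were -0.05 ± 0.11 and 0.02 ± 0.11 (difference not called, adjusted p = 0.0915 and 0.0552). BZIP60, a transcription factor of the unfolded protein response, rose by 1.50 ± 0.28 (adjusted p = 0.000697). Of the other 5 measured genes of endoplasmic reticulum folding none was called higher, and the cyclophilin gene AT3G55920 was lower, at -0.53 ± 0.09 (adjusted p = 0.000316).

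Cold- and drought-responsive genes were higher at ambient CO2. All 5 measured genes of a list of 36 were called higher in GO5, 2 in cat2 and 3 in WT. Over all probe sets the shares called higher were 7.69% in GO5, 5.16% in cat2 and 2.78% in WT. The list medians were alike, at 1.84 in GO5, 1.84 in cat2 and 1.67 in WT. No difference in step between genotypes was called (LTI30 against WT, adjusted p = 0.0569). The dehydrin gene LTI30 had a log2 signal of 10.69, 10.64 and 10.02 in the 3 ambient samples and 6.15, 6.02 and 5.45 in the 3 high-CO2 samples, with wide separation of the groups (4.58 ± 0.27, adjusted p = 2.95e-10). COR15A and COR15B, neighbouring genes for chloroplast-targeted cold proteins that may share signal, rose by 2.41 ± 0.61 and 1.84 ± 0.61 (adjusted p = 0.00766 and 0.0409), the dehydrin gene COR47 by 0.91 ± 0.31 and LEA4-5 by 0.96 ± 0.28. Against 0 h, LTI30 was 6.82 higher at ambient and 2.24 higher at high CO2, and COR15B 6.65 and 4.82. Replicate 1 was the highest ambient array for all 5 genes. LTI30 kept its call in every fit with 1 GO5 array left out. COR15A lost it without high-CO2 replicate 3 (highest adjusted p 0.0644), COR15B and COR47 lost it without ambient replicate 1 among others (0.294 and 0.263), and LEA4-5 without ambient replicate 1 or high-CO2 replicate 2 (0.0779).

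Flavonoid and anthocyanin genes differed from the cold genes in their relation to 0 h. Of 9 measured genes out of 30, 7 were called higher at ambient CO2 and none lower (7.69% and 9.99% of all probe sets). The median was 1.72 in GO5, 1.64 in cat2 and 1.67 in WT. The list median against 0 h was -0.28 at ambient and -1.17 at high CO2. HYH, a light-responsive bZIP factor related to HY5, had log2 signals of 6.64, 7.41 and 7.57 on the ambient arrays and 3.05, 3.49 and 3.25 on the high-CO2 arrays, and its 0 h mean was 7.58. It was 3.95 ± 0.47 higher at ambient than at high CO2 (adjusted p = 5.27e-06), with -4.32 at high CO2 and -0.37 at ambient CO2 against 0 h. Its GO5 step exceeded the WT step of 1.41 ± 0.47 (difference adjusted p = 0.0421), a call kept in 4 of the 12 fits with 1 array left out (highest adjusted p 0.122) and lost with a trended robust fit and without the 2 arrays that stood apart. CHIL, which aids chalcone isomerase, was 1.81 ± 0.51 higher at ambient than at high CO2. It lay below its 0 h level in both groups, with -3.12 at high CO2. DFR, the dihydroflavonol reductase, had log2 signals of 6.13, 6.42 and 5.09 at ambient CO2 against 3.30, 3.20 and 3.36 at high CO2 (difference 2.59 ± 0.35, adjusted p = 2.57e-05). The anthocyanin glycosyltransferase genes UF3GT and AT4G14090 rose by 1.72 ± 0.27 and 1.55 ± 0.35, and the flavonoid glucosyltransferase gene UGT78D2 by 1.73 ± 0.47. The calls for CHIL and UGT78D2 were lost without ambient replicate 2 or high-CO2 replicate 1 (highest adjusted p 0.0577 and 0.0533). Of 6 measured jasmonate genes 2 were called higher (7.69% of all probe sets). JMT, which makes methyl jasmonate, and OPCL1, a ligase of jasmonate synthesis, were higher at ambient than at high CO2 by 1.34 ± 0.33 and 1.07 ± 0.23. JMT lay below its 0 h level in both groups and lost its call without ambient replicate 2 (adjusted p = 0.0566). PDF1.2 and PDF1.2b, defensin genes with SEs of 1.25 and 1.17, were not called.

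**Figure D5:**
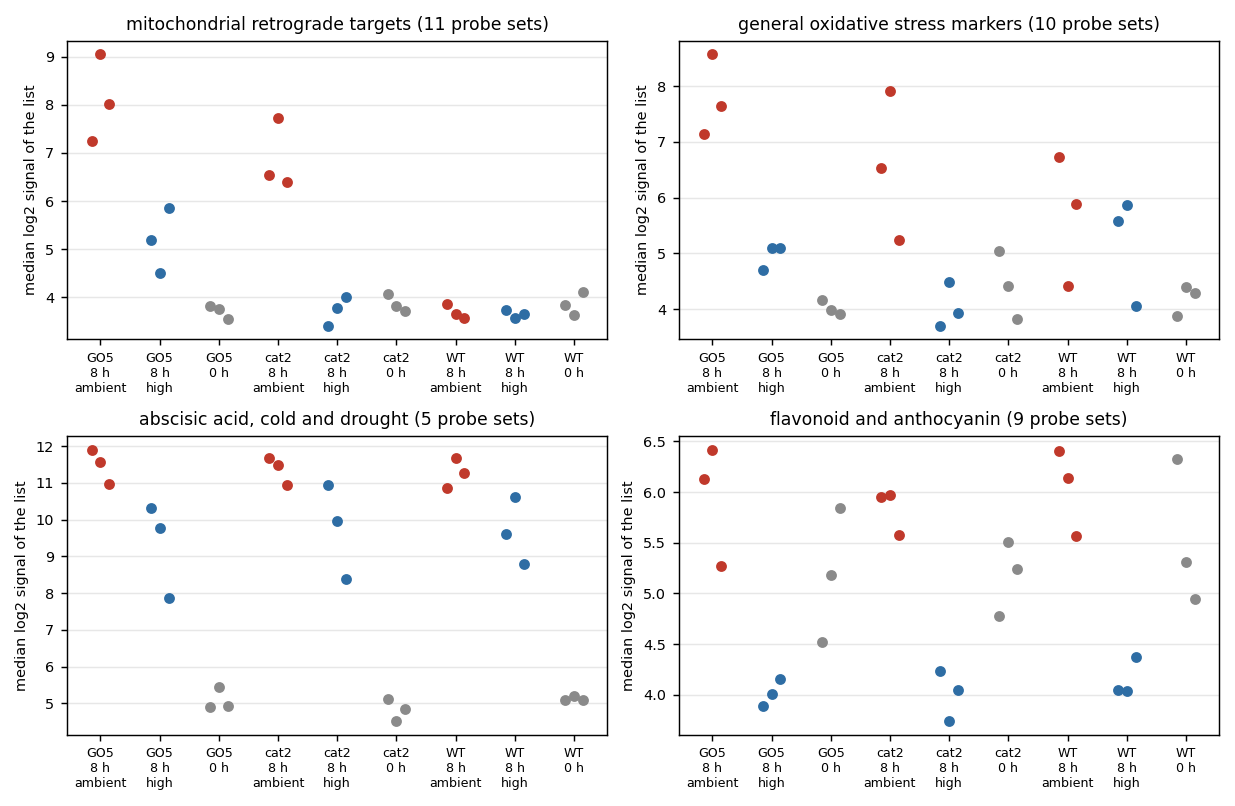
Median log2 signal of 4 gene lists (y axis) on each array, with replicates 1 to 3 from left to right within each group, for 8 h ambient CO2 (red), 8 h high CO2 (blue) and 0 h (grey) in GO5, cat2 and WT. The retrograde list lies at 7.24 to 9.05 in GO5 at ambient CO2 and at 3.57 to 3.86 in WT at ambient CO2, whereas the flavonoid list lies at 5.27 to 6.42 in the ambient arrays and at 3.74 to 4.37 in the high-CO2 arrays of the 3 genotypes.

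The largest decreases included genes of cell growth and wall loosening. EXPA8, an expansin that loosens cell walls, had a log2 signal of 4.88, 3.95 and 6.43 in the 3 ambient samples and 8.30, 7.67 and 8.49 in the 3 high-CO2 samples. The ambient arrays were lower and spread more, and the difference was -3.06 ± 0.71 (adjusted p = 0.00427), next to -3.53 ± 0.71 in cat2 and -2.53 ± 0.71 in WT. IAA29, an auxin-induced repressor, had log2 signals of 3.73, 3.02 and 3.57 on the ambient arrays and 5.75, 5.60 and 6.07 on the high-CO2 arrays, a difference of -2.37 ± 0.67 (adjusted p = 0.0162). XTH16, a xyloglucan transferase, was lower, at -1.94 ± 0.27 (adjusted p = 3.34e-05). The transcription factor genes BZIP61 and BZIP34 were lower, at -2.62 ± 0.56 and -1.48 ± 0.41 (adjusted p = 0.00225 and 0.014), and BZIP34 was not called without ambient replicate 2 (adjusted p = 0.0747). As a list, cell wall loosening was mixed, with 3 of 9 measured genes called higher and 2 lower (7.69% and 9.99% of all probe sets). XTH19, EXPA4 and EXPB3 were higher at ambient than at high CO2 by 2.67 ± 0.34, 1.65 ± 0.32 and 1.07 ± 0.32. XTH19 had stood at 6.78 at 0 h, above its level at 8 h in either CO2. EXPB3 lost its call in 5 of the 6 fits with 1 GO5 array left out (highest adjusted p 0.106). The expansin gene EXPA16 rose by 2.66 ± 0.47. Of 6 measured genes of auxin, gibberellin and brassinosteroid growth IAA29 alone was called, and the auxin-conjugating genes GH3.3 and WES1 differed by -0.93 ± 0.33 and -0.80 ± 0.28 (adjusted p = 0.0585 and 0.0527).

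Several decreases went beyond those of WT. EXLA1, an expansin-like gene, had log2 signals of 5.51, 5.44 and 5.79 at ambient CO2 against 7.85, 7.78 and 7.96 at high CO2. The groups were tight and separate, at -2.28 ± 0.21 (adjusted p = 3.19e-07), against -1.22 ± 0.21 in cat2 and -0.68 ± 0.21 in WT (difference from WT adjusted p = 0.00678). EXO, which promotes brassinosteroid-dependent growth, had a log2 signal of 6.50, 6.87 and 6.98 in the 3 ambient samples and 8.88, 8.66 and 9.25 in the 3 high-CO2 samples, with all ambient arrays lower by about the same amount. It fell by 2.15 ± 0.25 (adjusted p = 4.00e-06), and its steps were -0.63 ± 0.25 in cat2 and -0.54 ± 0.25 in WT (difference adjusted p = 0.0582 and 0.0169). AT5G50915, a basic helix-loop-helix factor gene, had log2 signals of 5.47, 5.02 and 5.59 on the ambient arrays and 6.86, 7.30 and 7.03 on the high-CO2 arrays. It was lower in GO5, at -1.70 ± 0.26 (adjusted p = 8.12e-05), against 0.01 ± 0.26 in cat2 and 0.15 ± 0.26 in WT (difference adjusted p = 0.031 and 0.00808, called in 5 and 12 of the 12 fits with 1 array left out). AT1G75960, of the AMP-dependent ligases, was lower, at -1.87 ± 0.23, AT4G37240 at -0.98 ± 0.24 and the plastid GrpE-type co-chaperone gene AT1G36390 at -0.98 ± 0.13. For these 3 the WT steps were -0.39 ± 0.23, 0.28 ± 0.24 and 0.28 ± 0.13 (difference adjusted p = 0.0165, 0.0434 and 0.000602, called in 10, 2 and 12 of the 12 fits with 1 array left out). Against cat2, AT2G24170, AT5G11810, AT2G34840 and AT2G32520 had lower GO5 steps, of -0.84 ± 0.09, -0.67 ± 0.11, -0.70 ± 0.14 and -0.52 ± 0.14, and these differences were called in 12, 3, 2 and 3 of the 12 fits with 1 array left out.

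The difference in step from cat2 or WT was not called for the genes of the following large decreases (adjusted p between 0.285 and 0.985). AT5G12050 had log2 signals of 5.00, 5.05 and 5.40 at ambient CO2 against 7.74, 7.35 and 8.49 at high CO2 (difference -2.71 ± 0.77, adjusted p = 0.0171), AT5G03120 was lower, at -2.69 ± 0.40, and AT4G19430 at -2.61 ± 0.49. The small heat shock-like gene AT4G21870 was lower, at -2.27 ± 0.35, the acid phosphatase-like gene AT1G04040 at -2.26 ± 0.21, and AT5G57760 at -2.22 ± 0.31. AT4G27450, of an aluminium-induced family, was lower, at -2.17 ± 0.71, a call that 5 of the 6 fits with 1 GO5 array left out did not keep. AT5G66590, of the CAP superfamily of secreted proteins, was lower, at -2.02 ± 0.50. AT4G10270, of a wound-responsive family, lay between 3.09 and 3.11 on the ambient arrays and at 4.83, 5.09 and 5.32 on the high-CO2 arrays (difference -1.98 ± 0.39, adjusted p = 0.00118). The calls for AT5G12050 and for IAA29 were lost without ambient replicate 2 and without high-CO2 replicate 3. The 2 largest decreases among probe sets not paired with a single gene were 265066_at, at -3.56 ± 0.40, and 266693_at, at -3.47 ± 0.69.

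The measured genes of photorespiration, chlorophyll synthesis, the photosystems and the Calvin-Benson cycle were called lower or not called. Other genes of plastid proteins were called higher, among them SAPX, SIR and SUFE2 above. Of 8 measured photorespiration genes, 2 were called lower (background 9.99%) and none higher, AT1G79870, a hydroxypyruvate reductase, at -0.54 ± 0.14 and AT1G80380, the chloroplast glycerate kinase, at -0.42 ± 0.10. Glycerate kinase had a log2 signal of 9.45, 9.21 and 9.41 in the 3 ambient samples and 9.76, 9.73 and 9.86 in the 3 high-CO2 samples, without overlap (adjusted p = 0.00463), and its GO5 step was lower than the WT step of 0.14 ± 0.10 (difference adjusted p = 0.0329, called in 6 of the 12 fits with 1 array left out). Of 7 measured genes of chlorophyll synthesis 2 were called lower, again against 9.99% of all probe sets. HEMB1, a 5-aminolevulinate dehydratase, and CHLM, the magnesium-protoporphyrin methyltransferase, were lower, at -0.75 ± 0.09 and -0.60 ± 0.19 (adjusted p = 9.02e-06 and 0.0333). HEMB1 had log2 signals of 9.32, 9.22 and 9.44 on the ambient arrays and 10.06, 10.05 and 10.12 on the high-CO2 arrays, with no overlap. The calls for CHLM and AT1G79870 were lost without ambient replicate 2, among others for CHLM (highest adjusted p 0.251 and 0.0943). None of 8 photosystem and light-harvesting genes was called (median -0.20), nor RCA, PRK and SBPASE of the Calvin-Benson cycle, whose differences were -0.03 ± 0.13, 0.00 ± 0.15 and -0.13 ± 0.17.

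Genes encoded in the plastid genome had a median difference of -0.29 in GO5, -0.10 in cat2 and 0.02 in WT, over 69 measured genes, against -0.04, -0.06 and 0.00 over all probe sets. Of the 69, 9 were called lower and none higher, or 13.0% against the background of 9.99%. rps18, a ribosomal protein gene, had log2 signals of 9.21, 8.89 and 9.52 at ambient CO2 against 10.26, 9.88 and 10.30 at high CO2, a difference of -0.94 ± 0.18 (adjusted p = 0.000647), against -0.10 ± 0.18 in cat2 and -0.02 ± 0.18 in WT (difference from WT adjusted p = 0.0469, called in 4 of the 12 fits with 1 array left out). The ribosomal protein genes rpl33 and rps15 were lower, at -0.66 ± 0.16 and -0.66 ± 0.19, and the photosystem I subunit genes psaJ and psaI at -0.65 ± 0.15 and -0.38 ± 0.11. ndhJ, of the NADH dehydrogenase-like complex, was lower, at -0.48 ± 0.14. The calls for rpl33, rps15, psaI and ndhJ were lost with 1 or more GO5 arrays left out in turn, ambient replicate 2 in the case of rpl33, rps15 and ndhJ and replicate 3 in that of psaI (highest adjusted p 0.0692 to 0.177). Labelling from poly(A) tails captures plastid transcripts poorly, and how this bears on these values was not tested.

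Over all probe sets 7.69% were called higher and 9.99% lower, and the families below are to be read against those shares. Of 29 serine carboxypeptidase-like genes 7 were called lower and 2 higher, with SCPL34 and scpl26 lower, at -0.81 ± 0.20 and -0.78 ± 0.17. Trichome birefringence-like genes, whose products acetylate cell wall polysaccharides, were divided at 4 higher and 4 lower of 22, with TBL37 at 1.23 ± 0.31 and TBL45 at -1.72 ± 0.18. Without ambient replicate 2 the TBL37 call was lost (adjusted p = 0.0701). Of 14 genes with bZIP in their name 1 was called higher and 4 lower. This count leaves out bZIP factors under other names, such as HYH, which was called higher. Of 20 beta-glucosidases 5 were higher and 1 lower, with BGLU47 at 2.18 ± 0.38 and BGLU16 at -1.10 ± 0.17. The sugar transporter gene SWEET4 rose by 2.70 ± 0.37 (adjusted p = 2.76e-05). TET10, a tetraspanin, was lower, at -1.78 ± 0.16, more than in WT (difference adjusted p = 0.0311, called in 7 of the 12 fits with 1 array left out). CYP71B22, a cytochrome P450, was lower, at -1.50 ± 0.30, next to -2.59 ± 0.30 in WT, a difference that was not called (adjusted p = 0.174). Of 42 probe sets for AGAMOUS-like factors 1 was called, AGL18, by 0.46 ± 0.15, a call lost without ambient replicate 2 among others (highest adjusted p 0.235). No member was called among 9 measured genes of senescence and autophagy, all of the ATG8 group, 5 of starch and sucrose metabolism, 5 of the proteasome and 2 of sugar starvation (limma adjusted p at least 0.058).

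Relative to 0 h, 6694 probe sets (29.4%) were called in GO5 after 8 h at ambient CO2, 2911 higher (12.8%) and 3783 lower (16.6%). After 8 h at high CO2 it was 3155 (13.9%), 1592 higher (7%) and 1563 lower (6.87%). With arrays centred on their median the splits were 2482 higher and 4887 lower at ambient and 1275 higher and 1884 lower at high CO2. These 2 comparisons share the 0 h arrays, and 8 h of elapsed time is part of both. AT5G47330 was 5.97 above 0 h at ambient and 0.43 at high CO2, and AT2G32020 4.41 and 0.56. For other genes the high-CO2 group lay further below 0 h than the ambient group, as for BGLU47 (-0.29 at ambient and -2.48 at high CO2), JMT (-0.99 and -2.33) and XTH19 (-0.52 and -3.18). Among the decreases, EXLA1 was -2.32 at ambient and -0.04 at high CO2 against 0 h, and EXPA8 -2.81 and 0.26. AT1G75960 was -0.40 and 1.47 against 0 h.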

How the data were processed

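Whole-rosette RNA was hybridised to 27 ATH1 arrays, 3 for each of 9 groups, grouped by sample title. The deposited values were log2 signals per probe set, already summarised and normalized across arrays by the authors. RMA, GCRMA, affy and R 2.15.0 are named, per the submitters' processing notes, and which method made the values was not given. Values ran between 1.61 and 13.59, with 21.2% between 2 and 3, so low signals have little room to fall and their differences are compressed. Precision is set by the few arrays in each group.

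Of 22810 probe sets, 64 controls were left out. The platform annotation paired 13513 with 1 gene, 503 with several and 8730 with none, and 13436 matched RefSeq (TAIR10.1) names, so lists were measured in part. Probe sets for glycolate oxidase and catalase genes were not among those paired with 1 gene, and the genotypes were not checked on them. limma 3.58.1 in R 4.3.3 fitted 1 mean per group on all 27 arrays (lmFit, eBayes), with Benjamini-Hochberg adjustment over 22746 probe sets. The fit was tested on simulated data. All adjusted p-values in the text are from limma. Differences are ambient minus high CO2, and differences between genotypes are GO5 step minus WT or cat2 step.

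The comparison, its members, 33 gene lists and 15 families were chosen with earlier results of these data known, and the patterns defining the families were rewritten once the annotation had been read. Named genes were the 14 largest called increases and decreases without overlap, up to 6 called members per list or family, the 6 highest and lowest differences in step against WT and cat2, and 2 unpaired probe sets each way. The counts were recomputed after quantile normalization or median centring of arrays, with array weights, with a trended robust fit, without dim probe sets (below percentile 40), on only the arrays compared, with a replicate block, at adjusted p under 0.01 and with each array left out in turn. A GAPDH covariate and leaving out 2 arrays that stood apart (WT ambient replicate 1, cat2 ambient replicate 3) were chosen after seeing the data. These 2 arrays had the lowest median signals of all arrays, 5.278 and 5.372. They were not the 2 least like their own group. The correlation was 0.982 for cat2 ambient replicate 3, against 0.974 and 0.980 for WT ambient replicates 2 and 3, which were kept. Promoter motifs were not analysed here.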

Additional observations from a re-analysis of the deposited data

Results flagged for a closer look

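Differences between genotypes in the step between ambient and high CO2 were picked out where the limma test of the difference itself was called and the step was called in GO5. Against WT, the GO5 step was higher by 3.99 (log2) for AT3G28580, 3.87 for AT2G41730, 3.83 for AT2G04070, 3.82 for SUFE2, 3.66 for AT2G32020 and 3.36 for AT1G74360. It was lower for AT5G50915 (-1.86), EXO (-1.61), EXLA1 (-1.60), AT1G75960 (-1.48), AT4G37240 (-1.26) and AT1G36390 (-1.26). With any 1 of the 12 arrays left out, all of these kept their call except AT1G75960, which kept it in 10 fits, and AT4G37240, which kept it in 2.

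Against cat2, the GO5 step was higher by 3.65 for AT2G32020, 3.21 for AT2G23270, 3.15 for AT2G20720, 2.87 for AT4G37290, 2.86 for AT2G04070 and 2.72 for AT1G71530. It was lower for AT5G16980 (-1.84), AT5G50915 (-1.72), AT2G32520 (-0.98), AT2G34840 (-0.93), AT5G11810 (-0.79) and AT2G24170 (-0.69). The 6 higher ones, AT5G16980 and AT2G24170 kept their call with any 1 array left out, whereas AT5G50915 kept it in 5 of 12 fits, AT2G32520 and AT5G11810 in 3 and AT2G34840 in 2. None of the differences in these 2 paragraphs passed the test when only the 12 arrays compared entered the fit (adjusted p 0.0536 to 0.156). The cause of the differences was not tested.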

How the results depend on the processing

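None of the named genes called in the GO5 step changed sign under the alternatives in which it was refitted. The count of 4022 calls of GO5 ambient against high CO2 stayed within 1.5 times that number except at adjusted p under 0.01 (2222) and when 1 array was left out (2309 to 3846, with 2309 without ambient replicate 2 and 2672 without high-CO2 replicate 1). The calls themselves changed more. With only the 6 arrays compared 3629 were called, of which 2993 were among the 4022, and 18 of the 149 named genes lost their call. Against WT (633), 3802 were called with array weights, 13 with only the arrays compared and 139 at adjusted p under 0.01, and leaving out 1 array gave 190 to 1675. The weights of WT ambient replicates 1, 2 and 3 were 0.124, 0.304 and 19.587, so the weighted WT ambient mean rested almost wholly on replicate 3. Counts over 1.5 times away came without GO5 ambient replicate 1 (1162) or 2 (190), GO5 high-CO2 replicate 1 (230) or 2 (303), WT ambient replicate 2 (1675) and WT high-CO2 replicate 1 (204) or 2 (320). Against cat2 (112), 479 were called with array weights, 44 without dim probe sets, 6 with only the arrays compared, 51 at adjusted p under 0.01, 279 without the 2 arrays that stood apart, and 57 to 367 with 1 array left out, where 9 of the 12 arrays moved the count by over 1.5 times. The GO5 high-CO2 comparison with 0 h (3155) gave 7054 with array weights, 1946 at adjusted p under 0.01 and 2245 to 2661 with 1 array left out, and ambient against 0 h (6694) gave 4573 at adjusted p under 0.01 and 4972 to 6353. Median centring moved the median of all probe sets to -0.15 for GO5 minus WT and -0.14 for ambient against 0 h. Higher calls outnumbered lower ones against WT (329 and 304), but lower ones were more with median centring (290 and 525), quantile normalization (346 and 401), array weights (1734 and 2068), no dim probe sets (257 and 343), a replicate block (499 and 531) and without WT ambient replicate 3 (359 and 387) or WT high-CO2 replicate 3 (454 and 473). Against cat2 (71 and 41) lower ones were more without the 2 arrays that stood apart (113 and 166) and without cat2 ambient replicate 3 (61 and 78), and the split was 52 and 49 with median centring. For high CO2 against 0 h (1592 and 1563) lower ones were more with median centring (1275 and 1884), quantile normalization (1574 and 1638), array weights (3508 and 3546) and without high-CO2 replicate 1 (1168 and 1174) or 2 (1113 and 1132) or 0 h replicate 1 (1296 and 1340). Same-numbered GO5 ambient and high-CO2 arrays deviated together with correlations of 0.239, 0.081 and 0.302, and ambient replicate 1 correlated best with high-CO2 replicate 2 (0.245). The same-numbered correlations were 0.047, 0.44 and 0.375 in cat2 and 0.247, -0.169 and 0.329 in WT. Unlike-numbered arrays ran from -0.386 to 0.245 in GO5, from -0.501 to 0.296 in cat2 and from -0.337 to 0.264 in WT. The main fit did not take the numbers as a pairing, and whether replicates share a structure was not tested. With a replicate block 4493 probe sets were called in the GO5 step, 1030 against WT, 143 against cat2, 7047 for ambient against 0 h and 3641 for high CO2 against 0 h. Of the 149 named genes called in the GO5 step, 103 kept their call with any 1 of the 6 arrays left out. The causes of these changes were not tested.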

Other observations

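GO5 and WT differed in 3 probe sets at 8 h in high CO2. AT3G55920, a cyclophilin gene, had log2 signals of 7.16, 7.26 and 7.08 in GO5 and 2.90, 3.06 and 3.12 in WT at high CO2, a difference of 4.14 ± 0.09 (SE, limma adjusted p = 2.16e-18). At ambient CO2 it had 6.70, 6.55 and 6.67 in GO5 and 3.13, 3.03 and 2.82 in WT. The cat2 arrays lay at the level of GO5, with 7.25, 7.15 and 7.25 at high CO2, 6.96, 6.94 and 7.09 at ambient CO2 and 6.81, 6.92 and 6.85 at 0 h. The probe set 258359_s_at, not paired with a single gene, had 12.20, 12.15 and 12.16 in GO5 and 10.57, 10.13 and 10.39 in WT at high CO2 (difference 1.81 ± 0.12, limma adjusted p = 6.75e-09), and its GO5 step between ambient and high CO2 was 0.03. In cat2 it had 10.65, 10.75 and 10.34 at high CO2. AT2G04050 was the third, and in cat2 it had 2.96, 2.93 and 2.85 at high CO2.

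The order of the GO5 arrays within their groups was shared by many genes. The 11 retrograde targets had their highest ambient value on replicate 2 and their highest high-CO2 value on replicate 3 without exception, while the 5 cold and drought genes were all highest on ambient replicate 1.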
